A study of Mus musculus with 24 samples.

Results

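Expression of 10 genes from 3 calcium- and glycan-binding protein families was followed in CD8+ T cells during acute graft-versus-host disease in mice: the annexins Anxa1, Anxa2, Anxa5 and Anxa6, the S100 proteins S100a4, S100a6, S100a10 and S100a11, and the galectins Lgals1 and Lgals3. They were taken as the gene probes that carry these names on the arrays, 12 of 39429 gene probes, or 10 of 23397 named genes. All 10 had at least 1 probe that passed the detection filter and were among the 9375 genes tested. The arrays held RNA of OT-I CD8+ T cells marked by CD45.1, whose transgenic receptor recognises an ovalbumin peptide. Cells recovered on day 4 from blood, liver, lung and small intestine (5 arrays per site) were compared with cells of the graft on day 0 (4 arrays). The day 4 cells came from female C57Bl/6 recipients that carry the CAG-OVA transgene, received 11 Gy of total body irradiation in split doses, and were given allogeneic bone marrow and splenocytes from OT-I donors. Per the labels the OT-I CD8+ cells alone carried CD45.1, while the other grafted cells and the recipients carried CD45.2, all groups were isolated with magnetic beads against CD45.1, and mice were 8 to 16 weeks old. The labels do not tie samples to single animals, so p-values here describe variation among the samples, which may in part be technical.

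Annexins bind acidic phospholipids when calcium rises, and link membranes to the cytoskeleton, to secretion and to membrane repair. S100 proteins are small paired EF-hand proteins, most of them calcium sensors. Several bind annexins: S100a10 forms a complex with Anxa2, S100a11 binds Anxa1, and S100a6 binds several annexins. Galectins bind beta-galactoside sugars on glycoproteins; galectin-1 and galectin-3, the products of Lgals1 and Lgals3, are known in T cells for effects on adhesion, receptor organisation and cell death. Several of these genes, S100a4, S100a6, Anxa2 and Lgals1 among them, are commonly used as markers of activated and memory T cells.

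The probes of Anxa1 and S100a4 are shown because each gene had a pair of probes that gave different readings. The last 30 bases of each probe are given on mm9, with the canonical polyadenylation signal in capitals where the script found it.

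Anxa1 first probe, chr19:20447938-20447967, minus strand: cctgagaaagaagtttacatatAATAAAat
Anxa1 second probe, chr19:20449722-20449751, minus strand: gaagaagtatggaatctctctttgccaagc
S100a4 first probe, chr3:90409938-90409967, plus strand: caaattcAATAAAaggttttgaaactatta
S100a4 second probe, chr3:90409764-90409793, plus strand: attgccatgatgtgcaatgaattctttgag

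The first probe of each pair had the higher mean and stood for its gene. The second probe lay 1784 bases away for Anxa1 and 174 bases away for S100a4, measured between probe ends on the genome, and neither second probe held the signal letters in the bases shown. In all, 5 of the 12 member probes held AATAAA or ATTAAA somewhere in their 60 bases.

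The 250 bases before the annotated start of 4 genes are shown because S100a4 and S100a6, which varied together most closely among the genes described here, are near neighbours on chromosome 3 with S100a5 between them, whereas Anxa1 and Anxa2 moved in opposite directions. Sequences are from RefSeq on GRCm38.p6, a build other than that of the probe coordinates, and are written 5′ to 3′ on the gene's own strand. Capitals mark the TATA box letters TATAAA, the GC box letters GGGCGG, the AP-1 site letters TGANTCA and the E-box letters CACGTG, all searched on both strands.

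Anxa1, chr19:20390672-20390921, minus strand: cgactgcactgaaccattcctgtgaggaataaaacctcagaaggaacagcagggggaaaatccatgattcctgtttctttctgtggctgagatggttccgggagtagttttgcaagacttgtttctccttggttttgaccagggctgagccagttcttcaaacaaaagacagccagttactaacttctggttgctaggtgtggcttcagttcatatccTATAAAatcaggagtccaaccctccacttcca
Anxa2, chr9:69453433-69453682, plus strand: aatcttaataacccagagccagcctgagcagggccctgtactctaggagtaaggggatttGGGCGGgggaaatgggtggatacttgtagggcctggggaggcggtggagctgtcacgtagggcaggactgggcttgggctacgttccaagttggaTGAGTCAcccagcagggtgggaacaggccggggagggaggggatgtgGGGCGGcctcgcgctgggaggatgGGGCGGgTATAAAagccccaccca
S100a4, chr3:90603520-90603769, plus strand: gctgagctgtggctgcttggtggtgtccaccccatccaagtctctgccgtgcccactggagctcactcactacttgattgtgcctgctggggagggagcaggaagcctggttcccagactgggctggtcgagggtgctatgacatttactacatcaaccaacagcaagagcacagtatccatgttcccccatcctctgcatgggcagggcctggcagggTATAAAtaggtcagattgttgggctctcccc
S100a6, chr3:90612644-90612893, plus strand: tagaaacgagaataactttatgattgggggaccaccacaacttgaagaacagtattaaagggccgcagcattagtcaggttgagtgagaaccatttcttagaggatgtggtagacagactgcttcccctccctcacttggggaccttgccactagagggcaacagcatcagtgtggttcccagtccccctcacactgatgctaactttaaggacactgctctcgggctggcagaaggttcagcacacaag

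Of the 10 genes, 7 had an entry in the promoter table, the others being Anxa6, S100a10 and Lgals1. TATAAA stood in the windows of Anxa1, Anxa2 and S100a4, 3 of 7, against 12.4% of all 32851 promoters of that length. GGGCGG stood in 3 of 7, against 32.7% of all promoters, TGANTCA in 2 of 7, against 6.75%, and CACGTG in 1 of 7, against 6.02%. The S100a6 window held none of the 4 letter strings. Such matches describe the letters and no binding was measured.

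Values are scaled log2 signals, with the 75th percentile of the array taken off, so 1 unit is a doubling of signal; levels of different genes cannot be set against each other. On single arrays 22.6% to 38.6% of gene probes carried the scanner software's flag for a signal well above background. The T cell markers Cd8a, Cd8b1, Cd3d, Cd3e and Cd3g were well above background on all 24 arrays. The graft arrays shared 1 slide and, per the file headers, 1 scan day, and no day 4 array had either. Slide and scan day thus cannot be told apart from group in any comparison with the graft. Each of the other 5 slides held 1 array per site. Arrays 4 and 5 of intestine correlated least with their own group, with median correlations of 0.842 and 0.84 across genes, against 0.951 to 0.971 within the graft. In these bulk samples, fewer cells of a type and less RNA per cell cannot be told apart.

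Of the 10 genes, 8 were higher on day 4 than in the graft, 1 was lower and 1 did not pass the test, with the 4 sites weighted equally. The higher ones were Lgals3, Anxa2, S100a10, S100a4, S100a6, Lgals1, Anxa5 and Anxa6, and the lower one was Anxa1. S100a11 did not pass. In the same limma fit 34.5% of all tested genes were higher and 19.0% were lower, at a Benjamini-Hochberg adjusted p under 0.05. The median difference over the 10 genes was 1.5 on the log2 scale, against 0.23 over all genes tested. All 6 scalings of the arrays gave the same 8 higher and 1 lower, although they moved the median of all genes between -0.31 and 0.29 and the share of higher among all called genes between 36.7% and 71.2%, with 64.5% under the scaling used here. Markers of other cell types differed between the same groups. Of the tested B cell genes 0 of 10 were higher on day 4 and 9 were lower (median -5.67), as were 9 of 13 neutrophil and monocyte genes with 1 higher (median -3.4), 5 of 8 dendritic cell genes with 0 higher (median -3.64), 5 of 8 NK cell genes with 0 higher and 5 of 8 macrophage genes with 1 higher. Of 13 tested T cell genes 5 were higher and 1 was lower (median 0.35). The summed signal of the 14 T cell genes on the array ran from 230 to 839 on day 4, against 341 to 543 in the graft. The part of these lists in the differences of the 10 genes was not tested.

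**Figure D1:**
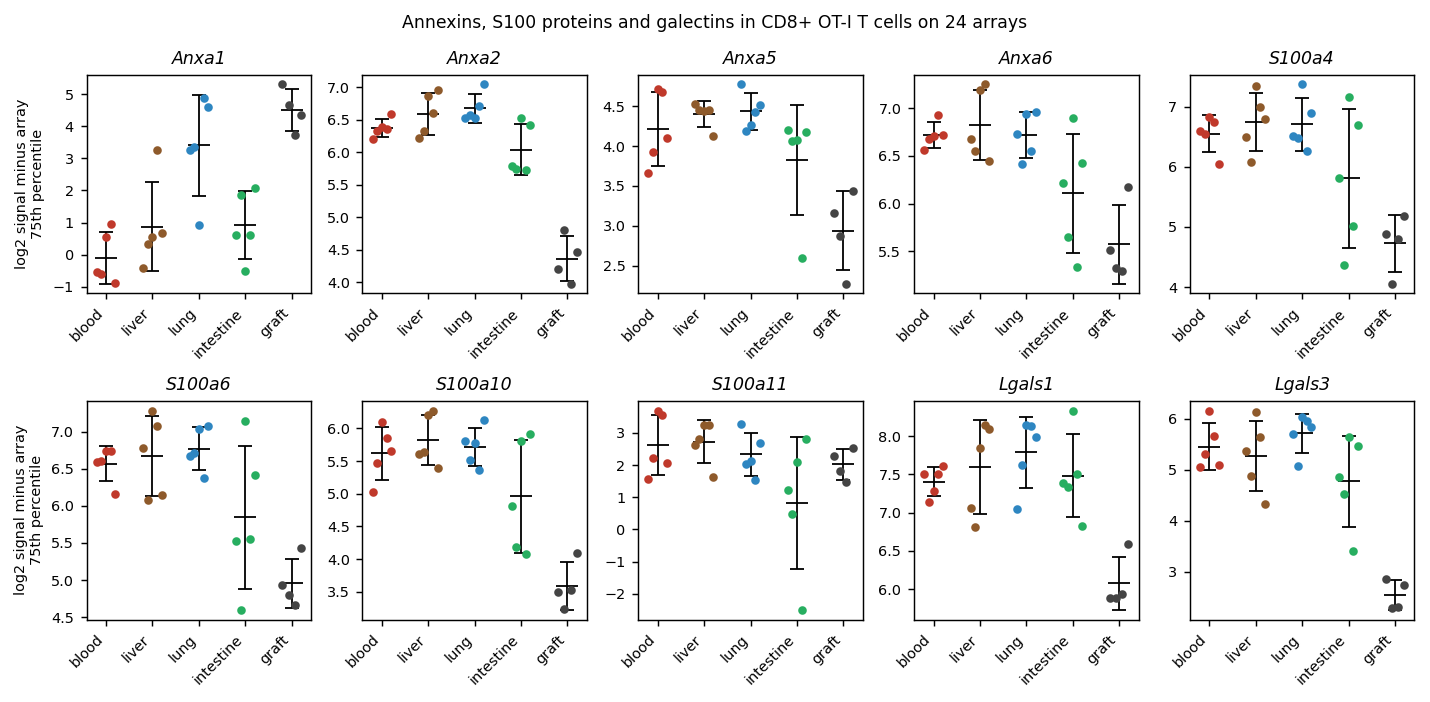
Scaled log2 signal, with the 75th percentile of the array taken off (vertical axis, a separate range per gene), for the 10 genes, by site on day 4 and in the graft. Points are arrays, and bars are the mean and SD (5 arrays per site, 4 of the graft). Anxa2, Lgals1 and Lgals3 have every day 4 point above every graft point, and Anxa1 has its highest day 4 points in lung.

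Lgals3 encodes galectin-3, a chimeric galectin able to form lattices on cell surfaces. Its log2 values were 5.05, 5.31, 6.16, 5.66 and 5.09 in blood, 5.36, 4.88, 6.13, 5.64 and 4.33 in liver, 5.7, 5.07, 6.03, 5.95 and 5.85 in the lung, and 4.85, 4.52, 5.65, 3.4 and 5.46 in intestine, against 2.85, 2.28, 2.3 and 2.74 in the graft. Every day 4 array lay above every graft array, and intestine array 4 was the lowest of the 20. The difference was 2.76 ± 0.319 (SE), a 6.77-fold rise (limma adjusted p = 2.68e-07). It was 2.53 after the median of all genes was taken off. Lgals1, encoding the dimeric galectin-1, averaged 7.41 ± 0.19 in blood, 7.59 ± 0.62 in liver, 7.79 ± 0.46 in the lung and 7.48 ± 0.54 in intestine (SD, n = 5 each), against 6.08 ± 0.35 in the graft (n = 4). Its lowest day 4 array, at 6.81 in liver, stood above its highest graft array, at 6.59. The rise was 1.49 ± 0.256 (limma adjusted p = 4.46e-05).

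Anxa2 and S100a10, which form a complex on the inner face of the plasma membrane, both rose. Anxa2 was at 6.2, 6.33, 6.39, 6.35 and 6.59 in blood, 6.21, 6.33, 6.87, 6.6 and 6.95 in liver, 6.52, 6.57, 6.52, 6.71 and 7.04 in the lung, and 5.79, 5.74, 6.52, 5.72 and 6.41 in intestine, against 4.21, 4.8, 3.98 and 4.46 in the graft. All 20 day 4 arrays were above all 4 graft arrays, and the spread within blood, an SD of 0.14, was a small part of the gap. The difference was 2.06 ± 0.186 (limma adjusted p = 7.83e-09). S100a10 averaged 5.62 ± 0.4 in blood, 5.83 ± 0.39 in liver, 5.72 ± 0.3 in the lung and 4.96 ± 0.87 in intestine (SD, n = 5 each), against 3.59 ± 0.36 in the graft (n = 4). For this gene 19 of 20 day 4 arrays exceeded the highest graft array, and the difference was 1.94 ± 0.28 (limma adjusted p = 4.89e-06). Anxa2, Lgals1 and Lgals3 were the 3 genes of the 10 with no overlap between day 4 and graft, a state found in 11.0% of all tested genes.

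Anxa5, which binds phosphatidylserine and is used in the laboratory to stain dying cells, averaged 4.21 ± 0.46 in blood, 4.4 ± 0.16 in liver, 4.43 ± 0.23 in the lung and 3.82 ± 0.69 in intestine (SD, n = 5 each), against 2.94 ± 0.49 in the graft (n = 4). The difference was 1.28 ± 0.249 (limma adjusted p = 0.000176), and 19 of 20 day 4 arrays were above every graft array. Anxa6, an annexin with a doubled core, averaged 6.72 ± 0.13 in blood, 6.82 ± 0.37 in liver, 6.72 ± 0.24 in the lung and 6.11 ± 0.62 in intestine, against 5.57 ± 0.41 in the graft. Its difference, 1.02 ± 0.225 (limma adjusted p = 0.000624), was the smallest of the 8 that rose.

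S100a4, a regulator of non-muscle myosin and cell motility, was at 6.6, 6.55, 6.83, 6.75 and 6.04 in blood, 6.5, 6.08, 7.35, 6.99 and 6.79 in liver, 6.51, 6.48, 7.37, 6.27 and 6.9 in the lung, and 5.81, 4.36, 7.17, 5.02 and 6.69 in intestine, against 4.88, 4.06, 4.8 and 5.18 in the graft. Blood, liver and lung lay wholly above the graft, while intestine arrays 2 and 4 fell within its range. The difference was 1.72 ± 0.345 (limma adjusted p = 0.000233). The second S100a4 probe, well above background on all 24 arrays, averaged 4.11 on day 4 and 3.74 in the graft, a difference of 0.37 that did not pass (limma adjusted p = 0.542 over 11202 probes). In intestine that probe averaged 3.18, against 3.74 in the graft, so the pair of probes disagreed in sign there.

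S100a6, which binds annexins and the Siah-interacting protein Cacybp, averaged 6.57 ± 0.24 in blood, 6.67 ± 0.54 in liver, 6.77 ± 0.29 in the lung and 5.84 ± 0.97 in intestine (SD, n = 5 each), against 4.96 ± 0.33 in the graft (n = 4). The difference was 1.5 ± 0.298 (limma adjusted p = 0.000214). In all, 19 of 20 day 4 arrays were above the highest graft array, and 1 intestine array was below the lowest.

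S100a11, an annexin-binding S100 protein, did not pass the test at any site. Its values were 1.57, 2.23, 3.69, 3.56 and 2.08 in blood, 2.64, 2.81, 3.26, 3.26 and 1.63 in liver, 3.27, 2.05, 2.13, 1.54 and 2.69 in the lung, and 1.23, 0.48, 2.1, -2.5 and 2.82 in intestine, against 2.27, 1.81, 1.46 and 2.54 in the graft. The groups overlapped at every site, and intestine array 4, the lowest, was the 1 array on which the probe was not well above background. The difference was 0.1 ± 0.581 (limma adjusted p = 0.89), and its sign changed with the scaling, between -0.47 and 0.46.

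Anxa1, the glucocorticoid-induced annexin that signals through formyl peptide receptors, was the one that fell. It was at -0.53, -0.59, 0.54, 0.95 and -0.88 in blood, -0.42, 0.33, 0.55, 3.25 and 0.67 in liver, 3.26, 3.34, 0.93, 4.89 and 4.59 in the lung, and 0.6, 1.86, -0.5, 0.61 and 2.06 in intestine, against 5.3, 4.67, 3.74 and 4.35 in the graft. All blood, liver and intestine arrays lay below the graft, whereas the lung arrays reached into its range. In blood the probe was well above background on 2 of 5 arrays and in intestine on 4 of 5, so levels there are near the detection limit. The difference for the 4 sites together fell by 3.24 on the log2 scale, with an SE of 0.592 (limma adjusted p = 8.8e-05). The second Anxa1 probe was not well above background on any day 4 array and was on 2 of 4 graft arrays. By the lowest detectable signal it was at least 1.35-fold lower in blood, 1.39-fold in liver, 1.06-fold in lung and 1.27-fold in intestine than in the graft, and it was not tested.

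Site by site, the same 8 genes rose in blood, liver and lung, and 5 of them rose in intestine. In blood 8 were higher and 1 lower, against 35.5% and 21.1% of all tested genes. In liver 8 were higher and 1 lower, against 34.6% and 16.0%. In lung 8 were higher and 0 lower, against 25.9% and 11.6%. In intestine 5 were higher, namely Anxa2, Anxa5, S100a10, Lgals1 and Lgals3, and 1, Anxa1, was lower, against 22.2% and 12.8%. The median difference over the 10 genes was 1.47 in blood, 1.61 in liver, 1.76 in the lung and 0.98 in intestine, and over all tested genes it was 0.29, 0.35, 0.19 and 0.09. These comparisons share the same 4 graft arrays. The count of higher genes in blood fell to 7 by the median of detected probes, where Anxa5 was lost (limma adjusted p = 0.0548). In lung it fell to 7 by their 75th percentile, where Anxa6 was lost (limma adjusted p = 0.072). For intestine it ran from 4 to 7 over the 6 scalings, with 7 by normexp, where 2077 of all tested genes were higher.

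**Figure D2:**
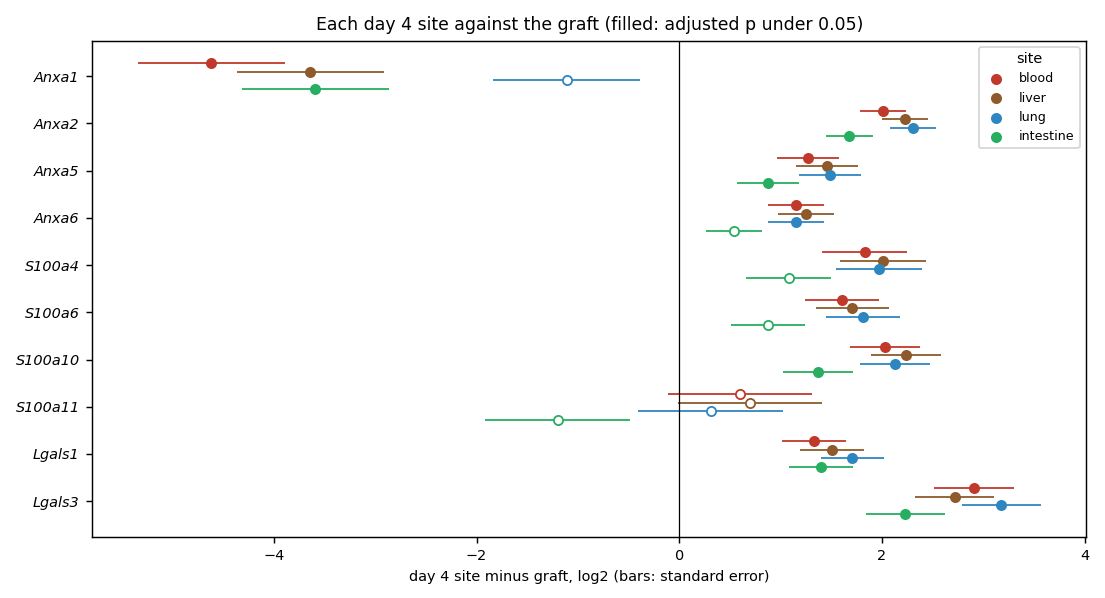
Difference between each day 4 site and the graft on the log2 scale (horizontal axis) for the 10 genes, with bars of 1 standard error from the limma fit. Filled points passed an adjusted p under 0.05. Anxa1 lies left of 0 at all sites and is open in lung, and 4 intestine points are open.

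The values behind the open intestine points were 0.54 ± 0.275 for Anxa6 (SE, limma adjusted p = 0.136), 1.08 ± 0.422 for S100a4 (limma adjusted p = 0.0502), 0.88 ± 0.365 for S100a6 (limma adjusted p = 0.0648) and -1.2 ± 0.712 for S100a11 (limma adjusted p = 0.198). Anxa5 passed in intestine at 0.88 ± 0.305 (limma adjusted p = 0.0275), but was called under only 2 of 6 scalings. The quantile scaling, the deposited table and both scalings on detected probes lost the call. It was also lost when graft array 3 was left out, at 0.66 (limma adjusted p = 0.12), and in 12 of 37 alternatives in all. Without intestine array 2, S100a4 reached 1.44 (limma adjusted p = 0.00576) and S100a6 reached 1.19 (limma adjusted p = 0.00807). With arrays weighted by their quality all 10 genes passed in intestine, Anxa1 and S100a11 as lower, but so did 57.5% of all tested genes.

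The spread among intestine arrays was wide. The median SD of the 10 genes was 0.88 in intestine, 0.36 in blood, 0.51 in liver, 0.34 in the lung and 0.38 in the graft, against 0.61, 0.42, 0.43, 0.49 and 0.3 over all tested genes. Intestine array 4 held the lowest value of 6 of the 10 genes and intestine array 3 the highest of 6. The summed signal of 14 T cell genes was 379, 244, 839, 230 and 683 on intestine arrays 1 to 5, against 341 to 543 in the graft. That of 15 intestinal epithelial genes was 42.1, 186, 9.22, 420 and 2.1 on the same arrays, against 5.43 to 8.54 in the graft, with Epcam the defining marker not well above background on any intestine array. Arrays 2 and 4, which were low for S100a4 and S100a10, had the lowest T cell sums and the highest epithelial sums. The part of these lists in the result was not tested.

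**Figure D3:**
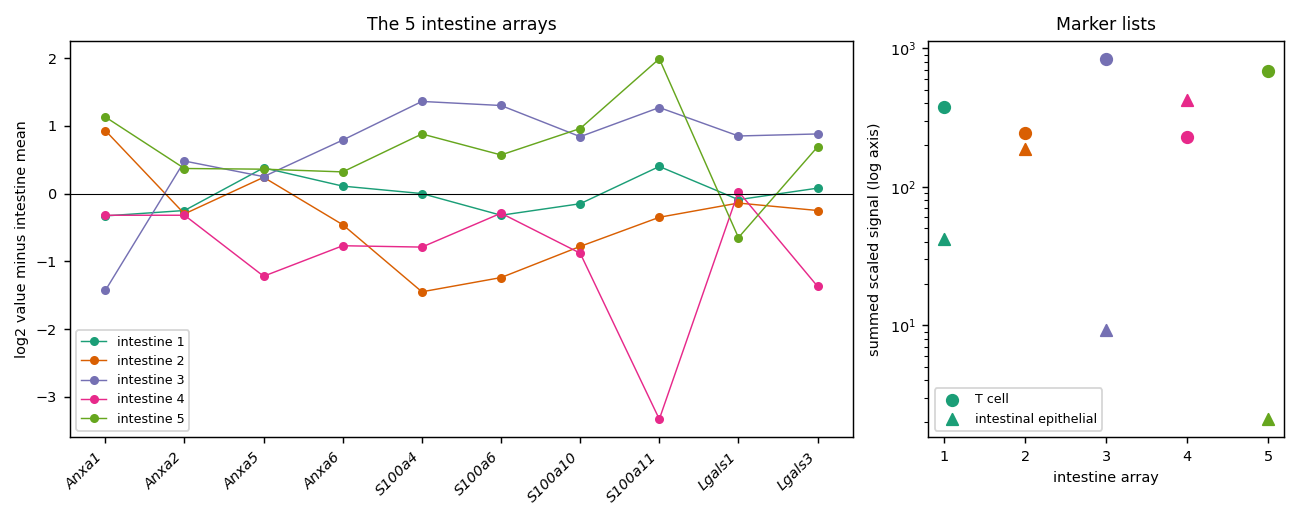
Left, each intestine array's log2 value minus the intestine mean for the 10 genes. Right, summed scaled signal of the T cell and intestinal epithelial lists on the same arrays (log axis). Array 3 is high and array 4 low for most genes, and arrays 2 and 4 have the lowest T cell sums.

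Between day 4 sites 1 of the 10 genes passed the test in 1 of 6 pairs. Against blood, 0 of the 10 were called in liver (0.0% of all tested genes), 1 in lung (1.55%) and 0 in intestine (13.4%) by limma. Lung against liver gave 0 (0.459%), intestine against liver 0 (0.0%) and intestine against lung 0 (0.384%). At an unadjusted p under 0.05 the counts were 0 for liver against blood, 1 for lung against blood, 3 for intestine against blood, 1 for lung against liver, 6 for intestine against liver and 9 for intestine against lung, against 3.22%, 37.7%, 34.0%, 18.0%, 23.0% and 8.53% of all tested genes in the same order of pairs. All 10 values of intestine against lung were below 0, from -2.48 for Anxa1 to -0.31 for Lgals1. With array weights 5 genes passed in intestine against blood (41.1% of all tested genes), 6 against liver (34.6%) and 4 against lung (7.84%). Without intestine array 3, 4 passed against blood (24.1%) and 4 against liver (7.02%). Without intestine array 5, 2 passed against blood (31.3%) and 2 against liver (14.6%).

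Anxa1 was the gene called between sites. Its mean was 3.4 ± 1.56 in lung and -0.1 ± 0.8 in blood (SD, n = 5 each), a difference of 3.5 ± 0.684 (SE, limma adjusted p = 0.0113). On the 5 slides lung exceeded blood by 3.79, 3.93, 0.39, 3.94 and 5.47, so the direction held on 5 of 5, and with slide as a replicate block the limma adjusted p was 0.0136. Without lung array 4 and intestine array 4 the difference was 3.13 (limma adjusted p = 0.0539), so the call was lost. Lung was above liver by 2.53 ± 0.684 (limma adjusted p = 0.109), on 5 of 5 slides, and passed without lung array 3 at 3.14 (limma adjusted p = 0.00953) or without liver array 4 at 3.12 (limma adjusted p = 0.0308). Intestine was below lung, with a difference of -2.48 (limma adjusted p = 0.121), also on 5 of 5 slides, and passed without lung array 3 at -3.09 (limma adjusted p = 0.0149) or without intestine array 5 at -2.76 (limma adjusted p = 0.0481). In order of mean the sites ran lung, intestine, liver and blood, and intestine and liver differed by 0.05 (limma adjusted p = 0.963 with all probes tested).

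Markers of other cell types followed Anxa1 on some arrays and not on others. The summed signal of 15 macrophage genes was 32.9, 30.5, 7.38, 160 and 63.2 on the lung arrays, in the same order as Anxa1 on those arrays apart from arrays 1 and 2, against 7.28 to 13.7 in blood and 22.1 to 68.9 in the graft. C1qa, C1qb and C1qc were not well above background on any lung array. Siglecf was the 1 of 8 tested macrophage genes called higher in lung than in blood, where 1.55% of all tested genes were called. Its difference was 3.66 (limma adjusted p = 0.0497), and that of Marco, not called, was 4.38 (limma adjusted p = 0.0524). Both were well above background on 4 of 5 lung arrays, and in blood on 1 of 5 for Siglecf and 2 of 5 for Marco. The macrophage sum was also high on intestine arrays 1 and 2, at 122 and 155, where Anxa1 was at 0.6 and 1.86. On intestine array 5 and liver array 4 that sum was 7.51 and 8.67, where Anxa1 was at 2.06 and 3.25, the highest of their sites. That of 10 lung epithelial genes was 40.3, 183, 15, 66.2 and 44.2 on the lung arrays, against 4.5 to 13 in blood and 5.2 to 6.97 in the graft, and 3 of its 5 tested genes were higher in lung than in blood, the surfactant gene Sftpc by 5.63 (limma adjusted p = 0.000629). Dendritic cell genes summed to 66.7 to 208 in lung, against 38.2 to 60.1 in blood and 247 to 281 in the graft. In blood the brightest tested genes of that list were Siglech at 4.44 and Xcr1 at 3.95, neither called between day 4 and the graft. NK cell genes summed to 7.32 to 60.7 in lung, against 7.46 to 14.6 in blood and 29.7 to 50.5 in the graft. Ncr1 was not well above background on any lung array, and Klrb1c averaged -0.48 in lung and -0.45 in blood. The 1 of 8 tested NK genes called higher in lung than in blood was Tyrobp, at 2.8 against -0.59 (limma adjusted p = 0.045). Intestinal epithelial genes summed to 4.11 to 108 in lung, against 1.93 to 4.98 in blood. Vil1 and Epcam were not well above background on any lung array, and the brightest tested genes there were Lyz1, Krt19 and Fabp1, at 3.47, 2.05 and 1.46. Lung array 3, the lowest of its site for Anxa1, was also the lowest for the macrophage, lung epithelial, NK and intestinal epithelial sums. Fpr2, a formyl peptide receptor gene known from myeloid cells, was well above background on 4 of 5 lung arrays and 0 of 5 blood arrays (limma adjusted p = 0.00572). The sum of 17 neutrophil and monocyte genes ran from 90 to 137 in blood, 93.6 to 221 in liver, 99.3 to 160 in lung and 89.1 to 134 in intestine, against 262 to 338 in the graft. Of its 13 tested genes 1 was higher and 9 were lower on day 4. The brightest on day 4 were Csf3r, Cxcr2 and Itgam, at means of 6, 4.32 and 4.05, so they weigh most in the day 4 sums. Csf3r and Cxcr2 were not called against the graft, and Itgam was the higher one. Among the lower ones Camp, Ltf and Retnlg averaged -1.56, -2.36 and -2.77 on day 4, against 6.28, 2.44 and 2.89 in the graft. B cell genes summed to 4.21 to 40.1 over the day 4 arrays, against 279 to 349 in the graft, with Ms4a1 not well above background on any day 4 array. The part of these cells in the Anxa1 result was not tested.

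**Figure D4:**
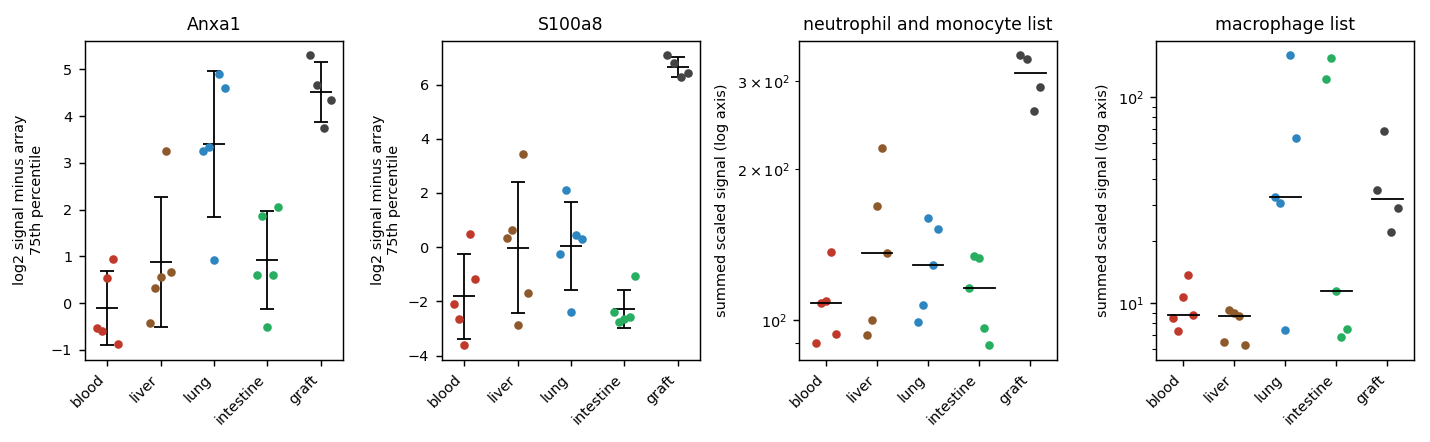
Anxa1 and S100a8 (log2 signal minus the array's 75th percentile, with mean and SD) beside the summed scaled signal of the neutrophil and monocyte list and the macrophage list (log axes, line at the median), by site and in the graft. Points are arrays. The graft is highest for S100a8 and the neutrophil and monocyte list, and lung array 4 is highest of its site for Anxa1 and the macrophage list.

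Relatives of the 10 genes were counted from lists of the same families. Of 8 other annexins 3 were tested, and all 3 were higher on day 4 for the 4 sites together, where 34.5% of all tested genes were. Anxa11, which tethers RNA granules to lysosomes, averaged 4.07 on day 4 and 2.13 in the graft, a difference of 1.93 (limma adjusted p = 1.28e-06). Anxa7 rose by 1.64 (limma adjusted p = 1.15e-05). Of the sites, Anxa4 was called in lung (limma adjusted p = 0.0128) and intestine (limma adjusted p = 0.0106), and not in blood (limma adjusted p = 0.404) or liver (limma adjusted p = 0.76). It was flagged well above background on 0 of 4 graft arrays and on 11 of 20 day 4 arrays, and the 4 sites together were at least 1.15-fold higher than the graft (limma adjusted p = 0.0411), a call kept by 3 of 6 scalings.

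Of 13 other S100 genes 6 were tested, with 2 higher and 2 lower, where 34.5% and 19.0% of all tested genes were. S100a8 and S100a9, which form calprotectin, the abundant neutrophil protein, were the 2 lower ones. S100a8 ran from -3.62 to 0.5 in blood, -2.87 to 3.44 in liver, -2.38 to 2.12 in lung and -2.75 to -1.06 in intestine, against 6.26 to 7.08 in the graft. S100a8 was well above background on 9 of 20 day 4 arrays and S100a9 on 13 of 20, so their differences from the graft rest in part on values near the detection limit. Measured that way, the difference was -7.66 for S100a8 (limma adjusted p = 4.76e-08) and -6.58 for S100a9 (limma adjusted p = 8.12e-05). The sum of the neutrophil and monocyte list given above was also lower on day 4 than in the graft. Within sites the match varied. On array 4 of blood and of liver S100a8 and that sum were both highest of the site. On lung array 3 S100a8 was lowest of its site, at -2.38, and the sum highest, at 160. The part of these cells in the S100a8 and S100a9 results was not tested. S100a13, known for a role in release of leaderless proteins, rose by 0.81 (limma adjusted p = 0.00555), a call kept by 4 of 6 scalings. S100a16 passed at a limma adjusted p of 0.00512 but 0 of 4 graft arrays carried the flag and its mean on day 4 lay under the detection limit there, so no fold is given. S100a1 and S100a14 differed by -0.12 and -0.09 (limma adjusted p = 0.69 and 0.812).

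Of 8 other galectins 4 were tested, with 0 higher and 2 lower for the 4 sites together, where 34.5% and 19.0% of all tested genes were. Lgals9, the tandem-repeat galectin-9, fell by 0.79 (limma adjusted p = 0.0152) and Lgals7 fell by 0.69 (limma adjusted p = 0.0428), each called under 5 of 6 scalings. Lgals9 was well above background on 14 day 4 arrays and Lgals7 on 18, of 20, and both on all 4 graft arrays. Lgals4 and Lgals12 differed by 0.2 and -0.5 (limma adjusted p = 0.861 and 0.061) over the 4 sites. Site by site Lgals4, which is also on the intestinal epithelial list, was higher in intestine than in the graft by 2.86 (limma adjusted p = 0.0462) and than in blood by 3.99 (limma adjusted p = 0.0203). It was well above background on 5 of 5 intestine arrays, 1 of 5 blood arrays and 3 of 4 graft arrays. Both differences thus rest in part on values near the detection limit.

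Of 20 binding partners and receptors 17 were tested, with 6 higher and 1 lower, where 34.5% and 19.0% of all tested genes were. By the median of detected probes 6 were higher and 5 lower. Sri, the calcium-binding sorcin, rose by 1.81 (limma adjusted p = 2.79e-06), the membrane-cytoskeleton linker Ezr by 1.42 (limma adjusted p = 7.63e-05), the actin gene Actg1 by 1.31 (limma adjusted p = 3.23e-05), the actin-capping Capg by 1.12 (limma adjusted p = 0.000294) and the penta-EF-hand Pdcd6 by 1 (limma adjusted p = 0.000516). The median of the 17 was 0.52, against 0.23 for all tested genes. Of 15 listed calcium-dependent membrane genes, Sri again among them, 11 were tested, with 9 higher, 0 lower and a median of 1.44. By 4 of 6 scalings 7 were higher, and by normexp 10. Efhd2 rose by 2.36, Cib1 by 1.59, Calm3 by 1.63 and Calm2 by 1.45, the last a calmodulin gene (limma adjusted p from 8.69e-08 to 3.19e-05).

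Genes bearing on galectin ligands moved both ways. Of 21 listed, 15 were tested, with 3 higher and 4 lower and a median of -0.01, where 34.5% and 19.0% of all tested genes were higher and lower. The counts were 5 higher and 3 lower by normexp, 2 and 6 by the 75th percentile of detected probes, and 2 and 7 by the other 3 scalings. The integrin chain Itgb1 rose by 1.75 (limma adjusted p = 0.00163) and the lysosomal glycoprotein Lamp1 by 0.9 (limma adjusted p = 0.0142), Lamp1 being called under 2 of 6 scalings. C1galt1c1, a chaperone of O-glycan synthesis, had the flag on 0 of 4 graft arrays and was at least 1.74-fold higher on day 4 (limma adjusted p = 2.62e-05). Cd7, a galectin-1 binding protein, was lower by a difference of -2.53 (limma adjusted p = 0.00163), and the N-glycan enzyme gene Mgat1 by a difference of -1.16 (limma adjusted p = 0.000567).

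Within groups the genes varied together to different degrees. Over 45 pairs the correlation of deviations from the group means had a median of 0.46 on 24 arrays, which share array scaling. It was 0.9 for S100a4 with S100a6, 0.88 for Anxa6 with S100a10 and 0.87 for Anxa5 with S100a11. The wide spread among intestine arrays weighs heavily in such values. Intestine array 4 was at 2.6 for Anxa5 against an intestine mean of 3.82, and at -2.5 for S100a11 against 0.83. No such median was taken over pairs of all tested genes. Anxa1 stood lowest, at -0.16 with S100a4 and -0.11 with S100a6. Over all 24 arrays, group differences included, the tested genes most like Anxa1 were Alox5ap (Pearson r = 0.912), Wfdc21 (r = 0.896) and Pygl (r = 0.891). S100a10 was most like Tagln2 (r = 0.979), Sigirr (r = 0.962) and Sars (r = 0.961), and Anxa2 most like Mcm6 (r = 0.964), Calm2 (r = 0.96) and Myl6b (r = 0.951). Lgals1 was most like Ldha (r = 0.963), Actg1 (r = 0.956) and H2az1 (r = 0.946), and Lgals3 most like Pqlc3 (r = 0.95), Tusc2 (r = 0.944) and Fbxo22 (r = 0.939). Anxa5 was most like Lxn (r = 0.921), Pqlc3 (r = 0.914) and Itgb2 (r = 0.91), and Anxa6 most like Tuba1a (r = 0.955), Yif1b (r = 0.954) and Sigirr (r = 0.953). S100a4 was most like H2az2 and Snrpd2 (both r = 0.919) and Gimap4 (r = 0.914), S100a6 most like Timm17b and Rom1 (both r = 0.919) and Sigirr (r = 0.917), and S100a11 most like Dgka (r = 0.939), Arhgap45 (r = 0.938) and Cat (r = 0.934).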

How the data were processed

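Per the labels' protocols, 300 pg of total RNA per sample was amplified linearly and labelled with Cy3 for 1-colour Agilent arrays, read with Agilent Feature Extraction 10.7 per the submitters' processing notes (9.5.1.1 per the file headers). The authors deposited the processed signal, a background-subtracted intensity not normalised between arrays, with mean and background intensity and spot flags. The authors' deposited log2 table matched quantile-normalised, probe-centred values (lowest correlation 0.99977) and served as an alternative. Its column medians lay between -0.030 and 0.028.

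Control and non-uniform spots were left out, spots of a probe averaged, and log2 signal taken minus each array's 75th percentile. Probes well above background on all or all but 1 arrays of at least 1 group were kept, and each gene was read from its probe of highest mean, which left 9375 genes. Names came from the array annotation, updated through RefSeq for 27508 probes by accession, 3544 by symbol and 404 by synonym, with 1029 kept as given and 6944 without a symbol. One limma 3.58.1 fit in R 4.3.3 to 24 arrays gave 11 contrasts, with calls where p adjusted by Benjamini-Hochberg was under 0.05. The code was tested on simulated data. The number of arrays limits the precision.

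A probe not well above background on any array of a group has only a bound there: the brighter group's mean against, per array, the higher of the lowest detected signal and the probe's own. Replicate numbers at day 4 equal slides per the file headers, where same-numbered arrays deviated together with a median correlation of 0.146 over 30 pairs, from -0.367 to 0.563. All 10 genes were described in each contrast. From the other lists all tested relatives, and up to 5 called genes with the smallest adjusted p, were named. The genes, lists and rules were chosen with earlier results of these data known. Alternatives changed background correction (normexp, offset 50), scaling, filter, probe rule, weights, variance, slide and replicate block, or left out arrays. The second S100a4 probe was tested, the second Anxa1 probe given by bounds only, and overlap of groups counted, as choices made after seeing the data.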

Additional observations from a re-analysis of the deposited data

Results flagged for a closer look

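Of 50 sets of 4 or 5 arrays of 1 gene in 1 group, 4 held an array far from the others, where chance alone gives about 1 in 20. Anxa5 in intestine had an array at 2.6 against the next at 4.06, and in liver one at 4.12 against the next at 4.44. S100a6 in blood had an array at 6.16 against the next at 6.59, and Lgals1 in the graft had one at 6.59 against the next at 5.94. The lung and blood differences from the graft were not alike for Anxa1: the log2 value in lung was 3.5 above that in blood (limma adjusted p = 0.0113), on 5 of 5 slides. Markers of other cell types are given above beside Anxa1 and their part was not tested.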

How the results depend on the processing

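Over 37 alternatives that left the probe of each gene as it was or averaged it, 39 of the 50 single-gene results against the graft kept their direction and their side of the threshold, and 0 of the called results reversed. The count of called genes for the 4 sites together stayed between 8 and 9. For intestine against graft it was 6, reached 10 with array weights and ran from 5 to 8 with an array left out. Array weights called 57.5% of all tested genes in intestine against graft. With them the count was 5 for intestine against blood (41.1%), 6 for intestine against liver (34.6%) and 4 for intestine against lung (7.84%). It was 1 for lung against liver, where the share of all tested genes was not taken. Each of these counts between sites was 0 without weights. Leaving out an array gave 0 to 4 for intestine against blood, with 4 without intestine 3 (24.1%) and 2 without intestine 5 (31.3%). For intestine against liver it also gave 0 to 4, with 4 without intestine 3 (7.02%) and 2 without intestine 5 (14.6%). Lung against liver and intestine against lung each gave 0 to 1. For the other fits with an array left out, the share of all tested genes was not taken. Lung against blood gave 0 under the filter on all 24 arrays, which leaves Anxa1 untested, and 0 without lung 4 and intestine 4.

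S100a11, not called at any site, reversed with the scaling. For the 4 sites together it was -0.47 by quantile normalization and in the deposited log2 table, -0.31 by the 75th percentile of detected probes and -0.44 by their median, and -0.08 to 0.31 with an array left out. In blood it was -0.03, -0.03 and -0.02 by quantile, deposited table and median, in liver -0.01 by median, and in lung -0.07, -0.07, -0.18 and -0.18 by quantile, deposited table, 75th percentile and median. Lgals1 in intestine against blood was -0.08 by normexp and -0.2 by quantile and in the deposited table, and -0.14 to 0.24 with an array left out. In intestine against liver it was 0.11 and 0.24 by the 75th percentile and median of detected probes and 0.13 with array weights, and -0.32 to 0.05 with an array left out. Anxa1 in intestine against liver ran from -0.28 to 0.64 with an array left out. The second S100a4 probe, an alternative chosen after seeing the data, gave 0.37 for the 4 sites together and -0.56, with a reversed sign, in intestine against graft, and passed at 0 of the 4 sites. The cause was not tested. In the paired fit with a replicate block, where the slides held 1 array per site, Anxa1 in lung against blood was 3.5 (limma adjusted p = 0.0136) and kept its call. Dim probes limit what can be said of Anxa1 in blood.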
